A study of Mus musculus with 2 samples.

Results

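The genes of the cytosolic ribosomal proteins were compared between wild-type (WT) and *G9a*-KO mouse embryonic stem cells (ESCs). They were taken by symbol, as genes named Rpl, Rps or Rplp with a number and at most 1 suffix letter, or *Rpsa*, wherever this was the single symbol that the platform annotation gives for a probe set. This rule found 46 of the 18194 measured genes, 24 of the large and 22 of the small subunit, covered by 100 probe sets. A further 37 symbols of the same form had no probe set of their own. Of these, 28, among them *Rpl3*, *Rpl5*, *Rpl10* and *Rplp1*, were listed only beside other genes, mostly symbols of pseudogenes or predicted genes, and 9, among them *Rpl10l* and *Rps27a*, were not listed and were not analysed here.

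The series holds 1 array of WT ESCs and 1 array of *G9a*-KO ESCs, made from 200 ng of total RNA each on an Affymetrix mouse expression array. The WT cells are TT2, an ESC line from a C57BL/6 and CBA F1 embryo. The *G9a*-KO cells are TT2 cells with 1 disrupted *G9a* allele whose floxed second allele lost exons 26 and 27, which encode the catalytic SET domain. The labels give both samples the same culture in serum replacement, a little fetal calf serum and LIF and the same treatment with 800 nM 4-hydroxytamoxifen for 48 h followed by 48 h without it, and they do not say separately whether the WT cells were treated. By the study's methods, however, a *G9a* null line was grown in serum and LIF on inactivated embryonic fibroblasts. The number of clones or cultures behind each array was not stated.

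Ribosomal proteins assemble with ribosomal RNA in the nucleolus into the large subunit, which forms peptide bonds, and the small subunit, which reads the mRNA. Their mRNAs are among the most abundant of growing cells such as ESCs and begin with a tract of pyrimidines (a TOP sequence) through which mTORC1 controls their translation. Most of these proteins are made in equal numbers. A few have paralogs that are expressed in particular tissues.

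Each level below is a log2 signal relative to the 75th percentile of its array, and each difference is *G9a*-KO minus WT on that log2 scale. A level depends on the probes of a probe set as well as on the transcript, so a level serves to compare the arrays and to sort probe sets into bright and dim, and a difference in level between genes is not read as a difference in mRNA. Each group is a single array, so no value has a replicate check and how far cultures vary is unknown. The levels are relative within each array, so a change in ribosomal protein mRNA that came with an equal change of all mRNA would not be seen. The targeted gene, *Ehmt2* (G9A), was at 2.05 in WT and 0.51 in *G9a*-KO by its brighter probe set (2.90-fold lower) and at -2.27 and -2.07 by its dimmer one, which lay near the median of all probe sets. Their position with respect to the lost exons was not determined.

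Most ribosomal protein genes were close to equal on both arrays, and the largest difference was that of the paralog *Rpl39l*, 5.32-fold higher in *G9a*-KO. Among the 46 genes, 4 passed 1.3-fold upwards (8.70%, against 17.4% of all genes), 2 passed it downwards (4.35%, against 17.2%) and 40 lay within this fold, which 34.6% of all genes passed in either direction. At 2-fold, *Rpl39l* was the 1 member that was higher (4.61% of all genes) and 0 members were lower (3.76% of all genes). The median difference was 0.074, with 33 genes above 0 and 13 below, beside a median of 0.036 over all genes. When 1 probe set past 1.3-fold was enough, as in the rule of the study, 6 members were higher (24.6% of all genes) and 4 lower (22.0%).

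**Figure D1:**
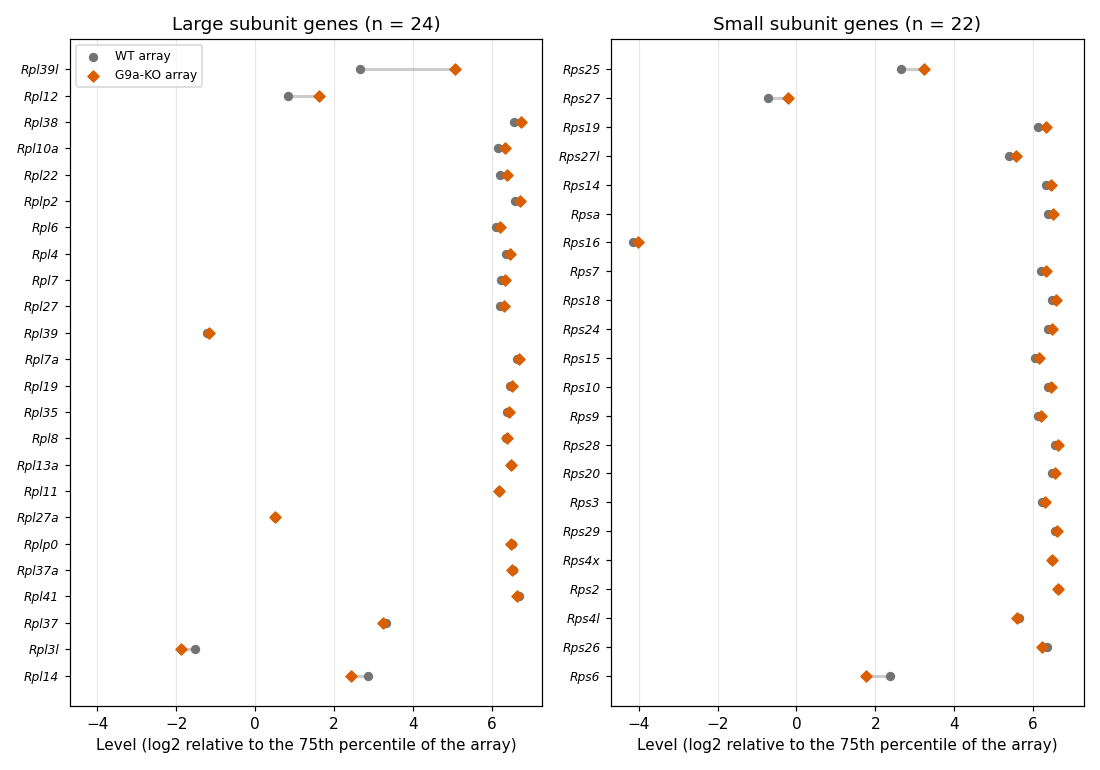
Level of the 46 ribosomal protein genes on the WT array (grey circles) and the *G9a*-KO array (orange diamonds), by the brightest probe set of each gene, on a log2 scale with the 75th percentile at 0 (horizontal axis), with 1 point per array and no error bars. Genes are ordered by their difference within the large subunit (24 genes) and the small subunit (22 genes). In most genes both points coincide above a level of 5, and *Rpl39l* runs from 2.65 to 5.07.

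The 24 large subunit genes had a median difference of 0.059, and 2 of them were over 1.3-fold higher (8.33%) and 1 was lower (4.17%). The 22 small subunit genes had a median of 0.085, also with 2 higher (9.09%) and 1 lower (4.55%). Of all genes, 17.4% were higher and 17.2% lower. The medians thus differed by -0.026 (large minus small), and the quartiles overlapped, at -0.0086 and 0.12 for the large and 0.042 and 0.13 for the small subunit. Genes on 1 pair of arrays are not replicates, so this difference was not tested.

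The bright members formed a narrow group. By their brightest probe set, 35 of the 46 genes had a mean level of at least 5, a limit set after the values were seen, and all 35 lay above the 99th percentile of all genes. Their levels ran from 5.39 to 6.68 in WT and from 5.56 to 6.74 in *G9a*-KO, close to the highest signals of the arrays (6.93 and 7.03). Their differences ran from -0.13 to 0.20 (SD over genes 0.077), and 0 of them passed 1.3-fold. Of the 169 other genes at a mean level of at least 5, 12.4% passed it in either direction, with an SD of 0.29. Of the 27 other genes at a mean level of at least 6, 1 (3.7%) passed 1.3-fold, and their differences ran from -0.33 to 0.61 with a median of 0.060 and an SD of 0.16. The 33 members at that level had a median of 0.074 and an SD of 0.074, and 0 of them passed 1.3-fold. The quartiles were 0.0015 and 0.095 for these other genes and 0.027 and 0.12 for the members. The middle parts of both groups were thus about equally wide, and a narrow range at that level was not particular to the members. Whether probes near the upper end of the scale still respond in full was not tested.

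Among the bright members, *Rps19*, *Rpl38*, *Rpl10a* and *Rpl22* had the highest differences. *Rps19*, the gene most often mutated in Diamond-Blackfan anaemia, was at 6.13 in WT and 6.32 in *G9a*-KO (1.15-fold higher). *Rpl38*, a large subunit gene known for its role in the translation of *Hox* mRNAs, went from 6.55 to 6.74 (1.14-fold). *Rpl10a* (6.15 and 6.34) and *Rpl22* (6.21 and 6.39) had differences of 0.18 each. The lowest bright member was *Rps26*, whose protein lies at the exit of the mRNA channel, at 6.36 in WT and 6.23 in *G9a*-KO (1.09-fold lower). It was followed by *Rps4l* (5.64 and 5.59), a gene similar to *Rps4x*, and by *Rpl41* (6.68 and 6.64) and *Rpl37a* (6.54 and 6.51). All of these lay within the 1.3-fold limit.

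Members were also grouped by role. The P stalk of the large subunit, which recruits elongation factors, was represented by *Rplp0* (6.51 in WT and 6.48 in *G9a*-KO), *Rplp2* (6.59 and 6.72) and *Rpl12* at its base, which is described further on. *Rplp0*, also called *Arbp*, is the internal control that the study used for real-time PCR, and it differed by -0.024. *Rpl11*, which together with *Rpl5* and an RNA of the large subunit can bind the p53 regulator MDM2, was at 6.19 on both arrays (difference -7.9e-05). Proteins at the rim of the peptide exit tunnel were measured for 4 of 8 listed genes, *Rpl19*, *Rpl22*, *Rpl35* and *Rpl39*, with differences from 0.043 to 0.18. Of 9 listed genes mutated in Diamond-Blackfan anaemia, 6 were measured, and their differences ran from -0.13 (*Rps26*) to 0.20 (*Rps19*) with a median of 0.088. The X-linked members measured were *Rps4x* (6.48 and 6.47) and *Rpl39* (-1.23 and -1.16), and neither passed the fold.

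**Figure D2:**
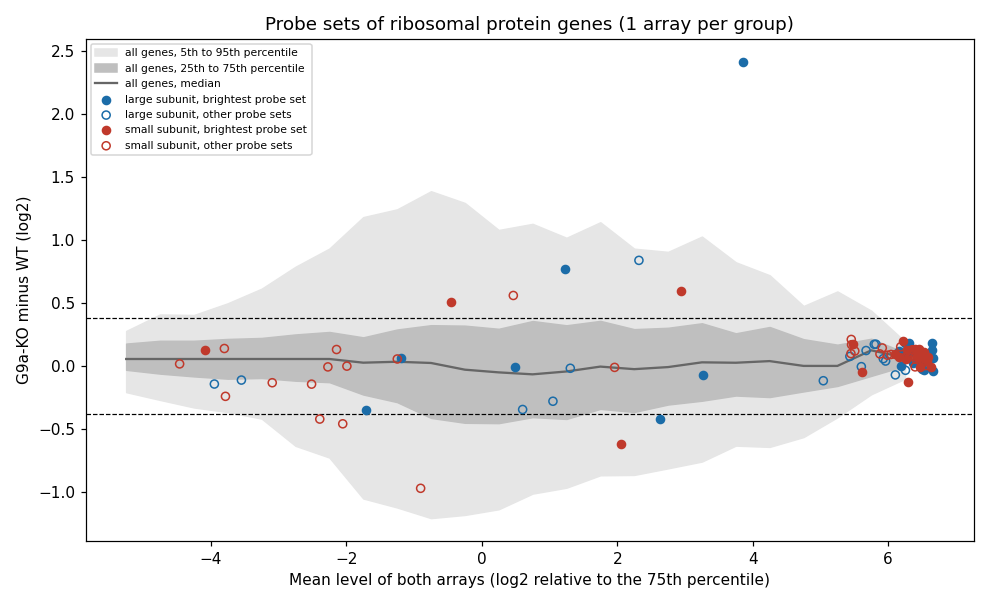
The vertical axis gives *G9a*-KO minus WT (log2) and the horizontal axis the mean level (log2, 75th percentile at 0) for the 100 probe sets of ribosomal protein genes, with filled points for the brightest probe set of a gene and open points for the others, blue for the large and red for the small subunit. Grey bands and line give the percentiles and median of all genes, members included, in steps of level, and dashed lines mark 1.3-fold. Steps with few genes were left out, so the bands end at 6.25, where the step holds 46 genes with many members among them. Bright members crowd between -0.13 and 0.20, the dimmer probe sets run from -0.97 to 0.84 apart from *Rpl39l*, which lies above the upper band at 2.41.

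The 6 members past 1.3-fold all had a mean level under 5. Of the 11 members under that level, 4 were higher (36.4%, against 17.4% of all genes) and 2 lower (18.2%, against 17.2%). The small share of members past the fold was thus not seen among the dim members. *Rpl39l* was at 2.65 in WT and 5.07 in *G9a*-KO, a difference of 2.41, by its single probe set. It encodes a paralog of the exit tunnel protein RPL39, lies on chromosome 16 and is known for high expression in male germ cells, whereas *Rpl39* itself is X-linked. The probe set of *Rpl39* was dim, at -1.23 and -1.16, and differed by 0.066. The difference of *Rpl39l* was therefore not shared by the gene it resembles, as far as a dim probe set can show. Next came *Rpl12* at 0.84 in WT and 1.61 in *G9a*-KO (1.70-fold higher). *Rps25*, a small subunit gene whose protein is used for initiation at viral internal ribosome entry sites, was at 2.65 and 3.24 (1.51-fold higher). *Rps27* was at -0.72 and -0.21 (1.42-fold higher).

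*Rps6* and *Rpl14* were the members past the fold in the other direction. *Rps6*, the substrate of the S6 kinases, was at 2.37 in WT and 1.75 in *G9a*-KO (1.53-fold lower), and its second probe set was dimmer than the array median and differed by -0.13. *Rpl14* was at 2.85 and 2.43 (1.34-fold lower). The other members below a level of 5 were *Rpl37* (3.31 and 3.23), *Rpl27a* (0.49 and 0.49), *Rpl3l* (-1.53 and -1.88) and *Rps16*. *Rps16* lay at -4.15 and -4.03, under each array's median signal, and its value says little about the transcript.

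The paralogs thus differed from one another. *Rpl3l*, the paralog of *Rpl3* that is expressed in muscle, was 1.27-fold lower in *G9a*-KO at a low level. *Rps27l*, a paralog of *Rps27* known as a p53 target, was measured by 3 bright probe sets, whose independence of each other was not determined. By the brightest of these it was at 5.39 in WT and 5.56 in *G9a*-KO, and the 3 differences ran from 0.17 to 0.21. Of the copies they resemble, *Rps27* and *Rpl39* were measured by 1 dim probe set each.

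A dim probe set need not read the main transcript of a ribosomal protein gene. Of the 23 members with several probe sets, 12 had both bright and dim ones, and 18 dim probe sets stood beside bright ones of the same gene. *Rps18* had 3 probe sets at mean levels of 6.37, 6.48 and 6.53, with differences of 0.13, 0.12 and 0.11, and another 3 at -4.46, -3.78 and -1.99. Where a gene had at least 2 bright probe sets, which held for 18 genes, these differed from each other by at most 0.12 (*Rpl13a*) and by a median of 0.040. Probe sequences were not compared, so such probe sets need not be independent readings. Some dim probe sets differed from the bright ones of their gene. For *Rps9*, the dim one differed by -0.97 and the bright ones by 0.074 and 0.099. For *Rpl22*, the values were 0.84 against 0.12 and 0.18. For *Rps20*, dim probe sets gave -0.42 and -0.46 and bright ones 0.056 and 0.067. For *Rps24*, 1 of the dim ones gave 0.56 while the bright ones ran from 0.068 to 0.10. Over all 100 probe sets, 69 had a mean level of at least 5 and 0 of these passed 1.3-fold. Of the 31 others, 6 were higher and 5 lower, beside 17.4% and 17.2% of all genes by their brightest probe set. The dim probe sets thus passed the fold about as often as genes in general. Each of *Rpl12*, *Rps25*, *Rps27*, *Rpl14* and *Rpl39l* had 1 probe set, so no second one bears on their values.

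**Figure D3:**
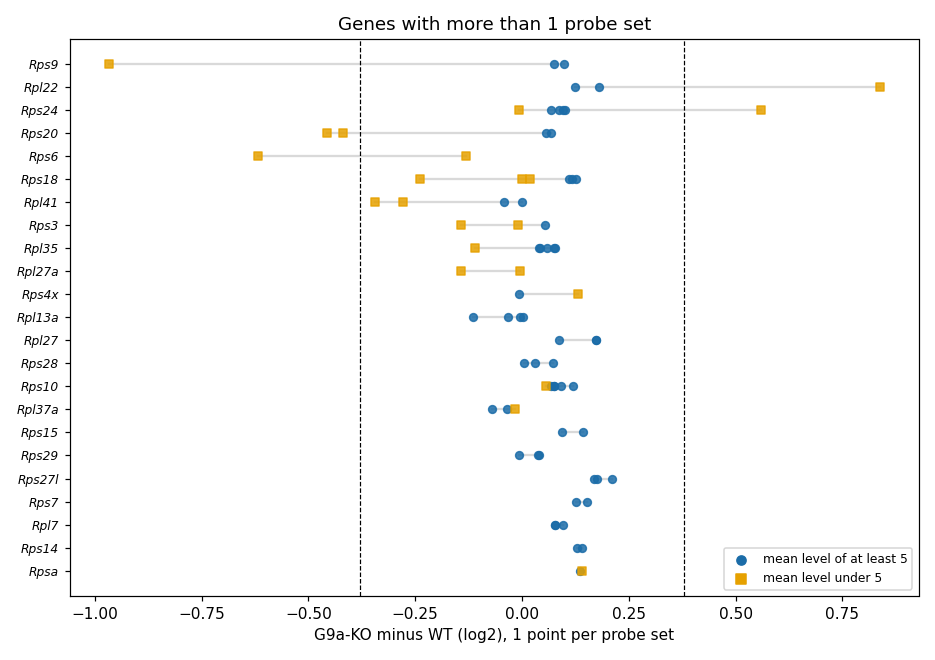
Difference between *G9a*-KO and WT (log2, horizontal axis) of each probe set of the 23 ribosomal protein genes that have more than 1, with 1 row per gene and a grey line from its lowest to its highest value. Blue circles are probe sets with a mean level of at least 5, orange squares dimmer ones, and dashed lines mark 1.3-fold. No blue circle lies outside the dashed lines, and the widest range is that of *Rps9*, from -0.97 to 0.099.

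RefSeq promoters of assembly GRCm38.p6 (250 bases before to 50 after the annotated start) matched 40 of the 46 genes with 48 promoters. The core of the ETS family site, CTTCCG on either strand, was held by 30 of these 48 promoters (62.5%) and by 16.9% of all 32851 promoters of the same length. The E-box CACGTG, which reads the same on both strands and is bound by MAX, was held by 5 (10.4%, against 7.15% of all). The core of the YY1 site, AAGATGGC on either strand, was held by 3 (6.25%, against 2.75%). None of these motifs contains another. The stretches below run from 70 bases before to 30 bases after the annotated start, 5′ to 3′, with the ETS core in capitals. They are shown for *Rps18* and *Rps7*, chosen from the bright members whose stretch holds the core more than once (the others are *Rpl37a*, *Rpl38* and *Rpl41*), for *Rps6* and *Rpl12*, which passed 1.3-fold in opposite directions, and for *Rpl39l* and its X-linked relative *Rpl39*.
*Rps18* (chr17:33955636-33955735, minus strand): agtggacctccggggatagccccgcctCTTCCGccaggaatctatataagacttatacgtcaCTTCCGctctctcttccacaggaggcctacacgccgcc
*Rps7* (chr12:28635924-28636023, minus strand): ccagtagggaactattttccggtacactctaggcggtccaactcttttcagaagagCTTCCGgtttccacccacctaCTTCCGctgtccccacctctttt
*Rps6* (chr4:86857338-86857437, minus strand): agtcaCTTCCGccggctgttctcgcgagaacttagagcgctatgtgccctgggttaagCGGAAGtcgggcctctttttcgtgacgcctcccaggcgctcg
*Rpl12* (chr2:32961642-32961741, plus strand): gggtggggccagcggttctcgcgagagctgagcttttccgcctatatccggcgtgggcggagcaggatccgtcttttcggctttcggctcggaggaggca
*Rpl39* (chrX:37085193-37085292, minus strand): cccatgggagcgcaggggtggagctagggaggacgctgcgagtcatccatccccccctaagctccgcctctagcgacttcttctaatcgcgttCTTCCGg
*Rpl39l* (chr16:10170158-10170257, plus strand): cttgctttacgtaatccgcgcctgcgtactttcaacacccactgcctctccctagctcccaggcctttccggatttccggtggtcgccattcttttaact
In *Rps18*, *Rps7* and *Rps6* the core occurred 2 times in the stretch shown, in *Rpl39* once, and in *Rpl12* and *Rpl39l* not within it. In its whole promoter *Rpl39l* held the core 2 times and *Rpl12* 1 time. A match of letters is a description of the sequence and not a bound site.

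Many genes that act in making the ribosome were lower in *G9a*-KO. Among 54 ribosome assembly factors, 25 passed 1.3-fold downwards (46.3%, against 17.2% of all genes) and 1 upwards (1.85%, against 17.4%), and the median was -0.31. *Emg1*, which methylates the RNA of the small subunit, was at 4.88 in WT and 3.77 in *G9a*-KO (2.14-fold lower), and *Rpf1* was at 2.86 and 1.79 (2.10-fold lower). *Nop56*, a core protein of box C/D ribonucleoproteins chosen after its values were seen, was at 4.48 and 3.52, and its second probe set gave -0.97. The highest of the list were *Ltv1* (2.87 and 3.26, 1.31-fold higher), which takes part in export of the small subunit, and *Pes1* (3.64 and 3.93, but -1.57 by a dim second probe set). The abundant nucleolar proteins *Npm1* (0.080) and *Fbl* (0.051), also named after their values were seen, stayed near 0, and probe sets of *Ncl* went both ways, with -1.43 and -1.34 for the dimmest and 0.20 to 0.24 for the others. The list was assembled with earlier results of these arrays known, and 1 array per group allows no test of it.

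Factors for transcription of ribosomal DNA were also lower. Among 12 measured genes, 6 passed 1.3-fold downwards (50%, against 17.2% of all genes) and 1 upwards (8.33%, against 17.4%), and the median was -0.37. *Polr1e*, a subunit of RNA polymerase I, was at 1.64 in WT and 0.48 in *G9a*-KO (2.22-fold lower), and its second probe set gave -1.14. *Taf1c*, which acts at the ribosomal DNA promoter, was at 0.96 and 0.14 (1.76-fold lower). *Ubtf*, also a factor of that promoter and chosen after its values were seen, differed by -0.70, and by -1.04 by its second probe set. *Taf1b* was at 0.77 and 0.89. *Taf1d* was the gene that was higher (2.57 in WT, a difference of 0.63), but of its dimmer probe sets 1 gave 0.26, another -0.027 and the others between -0.76 and -0.47.

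Other genes whose mRNAs carry TOP sequences, mainly translation factors, lay near 0. Of 18 measured, 17 lay within 1.3-fold and 1 was higher (5.56%, against 17.4% of all genes), with a median of 0.045. None was lower, against 17.2% of all genes. The elongation factor gene *Eef2* (4.92 and 5.25) lay within the limit. The exception was *Eif4a2*, an RNA helicase of the initiation complex, at 5.07 in WT and 5.88 in *G9a*-KO (1.75-fold higher). The initiation factor genes *Eif3l* (4.61 and 4.30) and *Eif4b* (4.20 and 3.95) had the lowest values. Under median centring and without a shift the median of this list was below 0 (-0.057 and -0.012), as it was under quantile normalization and lowess (-0.017 and -0.0024). The median of all genes was also below 0 in these settings, at -0.066, -0.020, -0.028 and -0.016 in the same order. The list thus stayed slightly above all genes in each.

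Regulators of ribosome production were mixed. Among 12 genes of mTORC1 and translation control, 2 passed 1.3-fold downwards (16.7%, against 17.2% of all genes) and 1 upwards (8.33%, against 17.4%), and the median was 0.022. *Larp1*, which binds TOP sequences, was at 3.59 in WT and 3.09 in *G9a*-KO (1.42-fold lower), and *Eif4ebp1*, an inhibitor of initiation, was at 4.73 and 5.11, just past the limit. The brightest probe set of *Tsc1* (1.15 and 0.17) gave -0.97 and the other ones 0.47 and 1.31, so no direction is given for it, and *Mtor* was at 1.36 and 1.61. The MYC family as listed holds factors that drive genes of ribosome production and also repressors, so its count has no single meaning. Of its 9 genes, 4 passed the limit downwards (44.4%, against 17.2% of all genes) and 1 upwards (11.1%, against 17.4%). The lower ones were *Myc*, *Mycn*, *Mga* (1.94 in WT and 0.91 in *G9a*-KO) and *Max* (0.30 and -0.11). The median of the 9 genes was -0.12, and it was 0.0072 with plain probe sets alone and -0.38 with the probe set of the largest difference. *Myc* was at 0.33 in WT and -2.08 in *G9a*-KO (5.32-fold lower), where its signal was about the median of all probe sets, so this fold is not exact. *Mycn*, which is known to act beside *Myc* in ESCs, was at 3.16 and 2.04 (2.18-fold lower), and its dim probe sets gave -0.61 and -0.0052. *Mxi1*, a repressor of MYC targets, was at 0.65 and 1.65 (1.99-fold higher). *Mxd1*, of the same kind, was dim at -2.03 and -1.73, and its other probe sets gave -0.17 and -0.38.

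**Figure D4:**
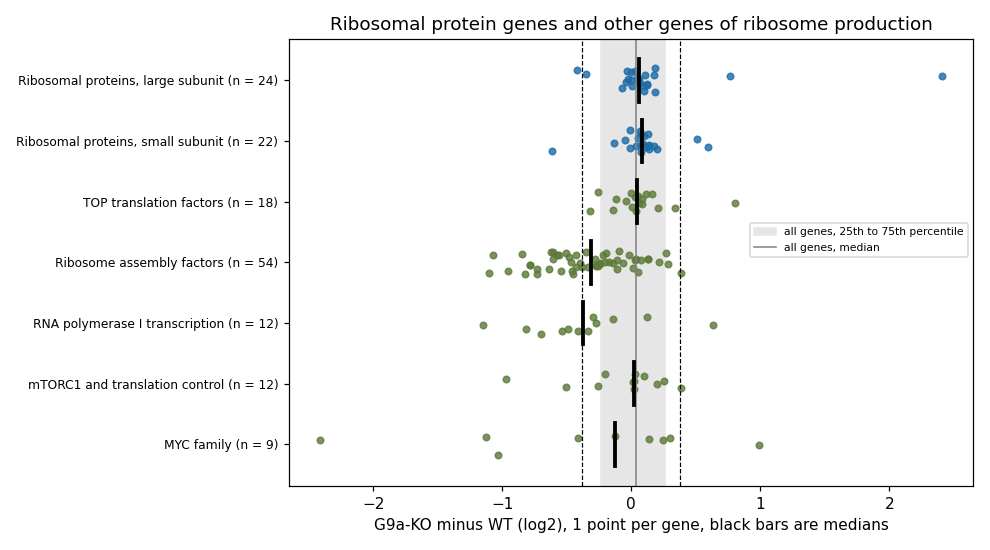
Difference between *G9a*-KO and WT (log2, horizontal axis) of each gene in the large and small subunit (blue) and in 5 other lists of ribosome production and its control (green), 1 point per gene by its brightest probe set, with black bars at the list medians. The grey band holds the middle part of all genes from the 25th to the 75th percentile, the grey line is their median, and dashed lines mark 1.3-fold. The medians of assembly factors (-0.31) and RNA polymerase I factors (-0.37) lie left of the band, and those of both subunits (0.059 and 0.085) inside it.

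Ribosomal proteins outside the symbol rule and the mitochondrial ribosome were set beside the members. *Rps3a1* (6.50 and 6.51) and *Rpl22l1* (5.68 and 5.95), the paralog of *Rpl22*, lay within 1.3-fold, and *Fau*, which encodes a small subunit protein fused to a ubiquitin-like domain, was just past it (1.31-fold higher). *Rpl7l1*, a relative of *Rpl7* that acts in assembly of the large subunit, was at 3.28 in WT and 2.66 in *G9a*-KO (1.54-fold lower), and its other probe sets gave -1.87 and -2.23. Of 76 mitochondrial ribosomal protein genes, 15 passed 1.3-fold downwards (19.7%, near the 17.2% of all genes) and 4 upwards (5.26%, against 17.4%), with a median of -0.096 and an SD over genes of 0.33. Of 39 proteasome subunit genes, 4 were lower (10.3%) and 2 higher (5.13%), both under the shares of all genes, with a median of -0.036. No test of these differences is possible with 1 array per group.

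Markers of other cell types also differed between the arrays. All 20 listed markers of primitive endoderm passed 1.3-fold upwards (against 17.4% of all genes), with a median of 3.12. Their summed linear signal went from 15.0 to 159 times the 75th percentile signal. Over probe sets above the median of both arrays, 13 of the 20 remained, all 13 past the fold, with a median of 3.11. The others were dim on at least 1 array, such as *Afp* (-3.27 in WT and -2.08 in *G9a*-KO), so their folds are not exact. Of 15 fibroblast markers, 7 were higher (46.7%, against 17.4% of all genes) and 0 lower (summed signal 20.5 and 29.8). Their median was 0.30, and it was 1.22 over probe sets above the median of both arrays, while *Col1a1*, *Col3a1*, *Dcn*, *Lum*, *Thy1*, *Prrx1* and *Postn* lay under the median signal of each array. Of 10 markers of pluripotent cells, 3 were lower and 1 was higher, beside 17.2% and 17.4% of all genes (median -0.24, summed signal 263 and 259). The higher one, *Dppa5a* (5.98 in WT and 6.59 in *G9a*-KO), was the brightest of the list and weighs most in the sum. Of the 10 differences, 8 lay below 0, so the near-equal sums do not describe most of these markers. The part of other cell types in the values of *Rpl39l*, of the ribosomal protein genes and of the assembly factors was not tested. In bulk RNA, fewer cells of a type and less RNA per cell cannot be told apart.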

How the data were processed

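The deposited values are log2 probe set signals. The submitters' processing notes name RMA and R 3.2.1, with which the authors made them. The 75th percentile shift and the ratio of knockout to control of the study's methods were followed, and 1.3-fold is its threshold for these arrays. Of 45101 probe sets, 34958 had 1 gene symbol in GEO's platform annotation, 932 had several and 9211 were unnamed here. The probe set with the highest mean stood for each of the 18194 genes. Members, gene lists and tests were chosen with earlier results of these data known. The text names the 8 highest and 8 lowest members, members of the role, paralog and X-linked lists, *Ehmt2*, and the 2 highest and 2 lowest of each other list of ribosome production among genes above the median signal. Other genes, such as *Rps9*, *Rps16*, *Rps18*, *Rps20*, *Rps24*, *Rpl13a* and *Rpl27a*, were chosen after their values were seen. Of 199 list entries, 175 were measured. No p-value was computed, since each group has 1 array. Alternatives were no shift, median centring, quantile normalization, lowess (span 0.3), probe set filters and other rules per gene. The steps were tested on simulated data with Python 3.11.15, pandas 2.3.3 and statsmodels 0.14.6. Arrays have no read depth, and their number limits the precision.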

Additional observations from a re-analysis of the deposited data

How the results depend on the processing

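No paired analysis was possible because each group has 1 array. Nor could an array be left out. No spread between replicates exists, so for the members and both subunits a median that changed in its second decimal is given. Median centring moved the median of all genes from 0.036 to -0.066 and those of all members, the large and the small subunit to -0.029, -0.043 and -0.017, so only their position relative to all genes kept its sign there. Without a shift these medians were 0.017, 0.0027 and 0.029, with quantile normalization 0.018, 0.00013 and 0.034, and with lowess 0.020, 0.0099 and 0.031. Plain probe sets alone (25 members) gave 0.055, 0.026 and 0.056. The mean over probe sets gave 0.063 for all members and 0.072 for the small subunit, and the largest absolute difference gave 0.12 for the latter. Without the paralogs, and with probe sets above the median, the small subunit median was 0.076, and 0.075 for members at a level of at least 5. Large minus small was again -0.026 without a shift and with median centring, which cannot move it, since they change each array by a constant. In the settings computed that could move it, it stayed below 0. These gave -0.034 with quantile normalization, -0.031 with plain probe sets, -0.021 with lowess and -0.016 without the paralogs or with probe sets above the median. It was -0.013 with the mean over probe sets, -0.064 with the largest difference and -0.012 for bright members. With plain probe sets, 5 of the 25 members were over 1.3-fold higher and 4 lower. Of all genes, by their brightest probe set, 17.4% were higher and 17.2% lower. The small share of members past the fold was therefore not seen with plain probe sets alone. With the largest difference, 6 members were over 1.3-fold higher and 4 lower, and with the mean 5 were higher and 1 lower. The shares of all genes under these 2 rules were not computed. Among bright members, 0 were higher and 0 lower. Adding probe sets that list several genes gave 101 values with a median of 0.083, of which 5 were higher and 5 lower. Of all genes, by their brightest probe set, these shares were 17.4% and 17.2%. The limits to bright members and to such probe sets were chosen after seeing the data. *Rpl39l* has a single, plain probe set, so only the 4 other scalings could move its difference, and it ran from 2.31 to 2.40 under these. *Rpl3l* passed 1.3-fold lower under the 4 other scalings (to -0.45), and *Rps6* fell just short of it (-0.37) with the mean over probe sets. The medians of assembly factors (-0.44 to -0.27) and of RNA polymerase I factors (-0.47 to -0.28) stayed below 0 in the settings run. The cause of these shifts was not tested.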

Other observations

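Ribosomal protein genes were also read by 110 probe sets that list such a gene beside others, mostly pseudogenes, and that cannot be assigned to 1 gene. Their differences had a median of 0.087 and ran from -1.22 to 0.64. Of the 110, 4 were over 1.3-fold higher and 7 over 1.3-fold lower in *G9a*-KO. These are smaller shares than the 17.4% and 17.2% of all genes by their brightest probe set.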
